A study of Mus musculus with 11 samples.

Results

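Ciliated ependymal cells, the epithelium that lines the brain ventricles, were picked from 11 single-cell RNA-seq libraries of C57BL/6 mouse brain cortex by a rule on 5 genes. Of the cells with more than 500 and fewer than 6000 detected genes and under 25% mitochondrial UMIs (unique molecular identifiers, each standing for 1 captured transcript), a cell was a member when Ccdc153, Tmem212, Foxj1 and Dynlrb2 together had at least 4 UMIs and Ttr, the transthyretin gene of the choroid plexus, took under 20% of its UMIs. The rule found 874 of 50625 cells. The 4 Juvenile libraries, made at postnatal day 10, held 716 of them among 13507 cells, or 5.3% (exact binomial 95% interval 4.93 to 5.69%). The 3 Adult libraries (7 to 11 weeks) held 47, the 2 Aged libraries (18 months) 14, and the 2 libraries at the peak of experimental autoimmune encephalomyelitis (EAE, 7 to 11 weeks) 97. Each Juvenile and Adult library pooled tissue from 6 mice and each Aged and EAE library from 3, so a library is a pool and not an animal. By the study's methods mice were female unless stated otherwise. Juvenile, Adult and Aged mice had no treatment, and the EAE mice were immunized with a peptide of myelin oligodendrocyte glycoprotein in Complete Freund's Adjuvant and given pertussis toxin. In all groups the meninges were taken off and myelin was depleted before cells were captured, and the study left Tmem212-positive ependymal clusters out of its own analysis. The Juvenile members were set against 764 astrocytes and 1580 choroid plexus epithelial cells of the same 4 libraries.

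Ependymal cells arise from radial glia and turn multiciliated in the first weeks after birth. Each mature cell carries a tuft of motile cilia, whose axoneme has an outer ring of microtubule doublets, a central pair, dynein arms that drive the beat, radial spokes that control it and proteins inside the doublets that hold them together. Foxj1 and the Rfx factors are known to switch on the genes of this axoneme, and Gmnc, Mcidas, Myb, Trp73 and Ccno act upstream, when centrioles multiply. Choroid plexus epithelium is a related ventricular epithelium that secretes cerebrospinal fluid, and astrocytes share the radial glial origin.

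The 4 Juvenile libraries gave 81, 81, 277 and 277 members, which were 3.02, 3.17, 6.65 and 6.74% of their cells. Libraries 1 and 2 thus had lower shares than libraries 3 and 4. Libraries 1 and 2 resembled each other, and 3 and 4 likewise: summed astrocyte counts differed with a chi-square per degree of freedom of 1.38 and 1.27 within these pairs and 2.6 to 2.83 across them. The ependymal sums differed more within the pairs, with 1.96 and 1.98, and 1.85 to 3.85 across. No source used here says whether the pairs shared mice. The p-values against astrocytes and choroid plexus cells come from a fit with library as a block. They measure how far differences between populations vary over the 4 libraries, a spread that may be partly technical. The EAE and Adult comparisons come from a separate fit between libraries without a block. The median member had 3990 UMIs and 2076 genes, against 3130 UMIs in astrocytes and 8433 in choroid plexus cells. Juvenile libraries shared 10 to 20 cell barcodes in each pair, and 2 of those were members in both libraries. A doublet caller marked 27 of the 716 members, and 238 (1.76%) of all 13507 Juvenile cells.

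The rule genes chose the members, so their levels are given as a description. Values are CPM, UMI counts scaled to a common library total, summed over the cells of a library, scaled by edgeR's normalization. Ccdc153, which encodes a coiled-coil protein typical of ciliated cells (chr9:44240676-44247306, GRCm38), had 2154, 2010, 2112 and 2432 CPM in the ependymal cells of libraries 1 to 4, a mean of 3.89 in astrocytes and 5.4 in choroid plexus cells. Tmem212, a membrane protein gene (chr3:27866066-27896368), had 2170, 1943, 1947 and 2362 CPM, against means of 4.52 and 7.05. Foxj1, the forkhead factor that controls motile ciliogenesis (chr11:116330704-116335399), had 681, 790, 643 and 743 CPM. These first genes were even across the libraries, and all of them lay far above the other populations. Foxj1 had a mean of 6.96 CPM in astrocytes but 95.6 ± 13.2 (SD, n = 4) in choroid plexus cells. Dynlrb2, a roadblock light chain of dynein (chr8:116504974-116515915), had 1376, 1352, 1283 and 1584 CPM, against 10.3 in astrocytes and 88.5 ± 11.4 in choroid plexus cells. Its paralog Dynlrb1 (chr2:155236533-155250277), the roadblock chain of cytoplasmic dynein, was not used by the rule and went the other way, with 207, 188, 250 and 281 CPM. It was 1.41-fold lower than in astrocytes (log2 difference -0.5 ± 0.09 SE, edgeR adjusted p = 8.90e-06) and 1.62-fold lower than in choroid plexus cells (log2 -0.69 ± 0.09, edgeR adjusted p = 2.01e-09). All 4 ependymal values of Dynlrb1 lay below all 8 others, where 24% of all genes did not overlap in this direction against astrocytes and 25.5% against choroid plexus cells.

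Most members were far from the limits of the rule. The median Juvenile member had 30 UMIs of the 4 genes, and 599 of the 716 had at least 1 UMI of each. Just inside the limit on UMIs were 21 cells with 4 and 11 with 5, and just outside it were 48 with 3 and 127 with 2. The cells with 3 and with 4 had many UMIs in all, a median of 8516 and 8149. Ttr took under 5% of the UMIs in 668 members, and 27 lay between 15 and 20% with a median of 5 rule UMIs. Beyond that limit, 47 cells with 4 or more rule UMIs had 20 to 25% Ttr, and their median of rule UMIs was also 5. A stricter cut, with at least 10 rule UMIs and under 5% Ttr, kept 636 Juvenile members and is given below where it changes a result.

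**Figure D1:**
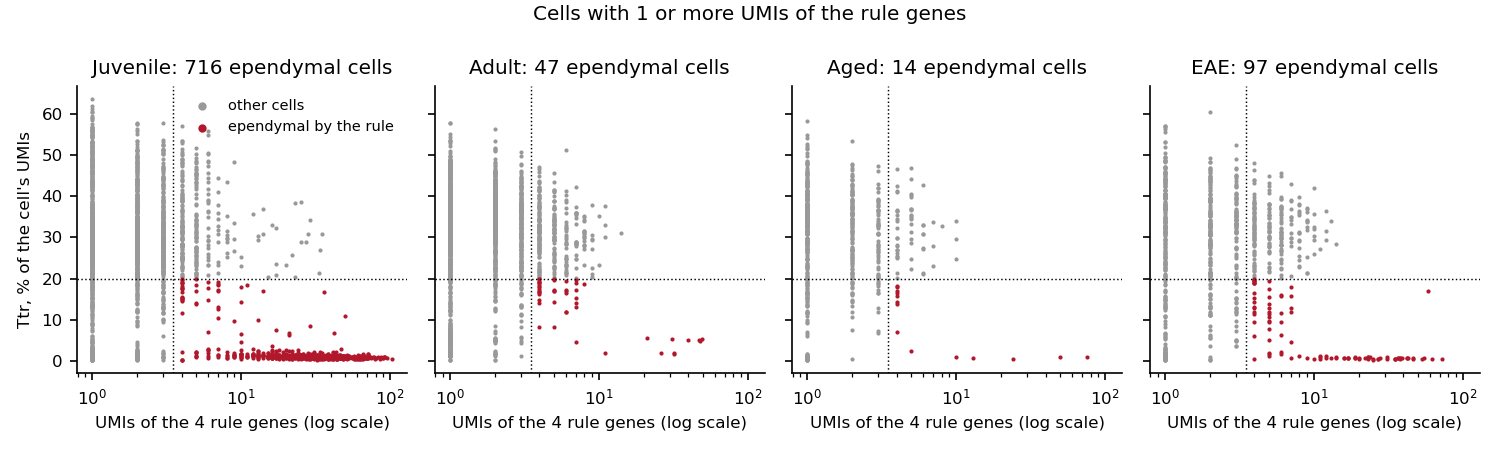
UMIs of the 4 rule genes (x, log scale) against the share of UMIs taken by Ttr (y, %) for every cell with at least 1 rule gene UMI, in 1 panel per group, with dotted lines at the limits of the rule. The 716 Juvenile members (red) form a dense band at low Ttr that reaches far to the right, while most of the 47 Adult members sit in the corner where both limits meet.

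The label was set against genes outside the rule, which belong to the same ciliary programme and were counted in the same cells, so their values describe the members and are no independent test of the label. The 9 measured genes of an ependymal check list together had 5425 to 6358 CPM in ependymal cells, 79.9 to 112 in astrocytes and 582 to 738 in choroid plexus cells. All 9 were higher than in astrocytes, with a median log2 difference of 7.02, where 32.2% of the 10493 genes tested were higher and their median was 0.01. Against choroid plexus cells 8 were higher and 1 lower, with a median of 3.78, where 33.2% of all genes were higher and their median was 0.02. Rsph1, a radial spoke head protein, had 931, 889, 879 and 1172 CPM and was 130-fold higher than in astrocytes and 10.6-fold higher than in choroid plexus cells (log2 3.41 ± 0.09, edgeR adjusted p = 9.85e-33). Fam183b (714 ± 124 CPM, SD, n = 4) was 151-fold higher than in choroid plexus cells. Tm4sf1, a tetraspanin-like membrane protein, had 1516, 1400, 1495 and 1516 CPM and was 70.7-fold and 24.5-fold higher. Hdc, the enzyme that makes histamine, had 593, 562, 559 and 700 CPM and was 131-fold higher than in astrocytes and 13.4-fold higher than in choroid plexus cells. The ependymal libraries lay above all others for each of these 4 genes, as they did for 26.7% of all genes tested against astrocytes and 28.0% against choroid plexus cells. Mia, a small secreted protein, was the exception, with 214, 225, 177 and 172 CPM in ependymal cells and 367, 271, 176 and 178 in choroid plexus cells. Its call as lower there (log2 -0.24 ± 0.1, edgeR adjusted p = 0.0429) was lost without library 1 (-0.09, adjusted p = 0.471) or without library 2 (-0.22, adjusted p = 0.105).

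**Figure D2:**
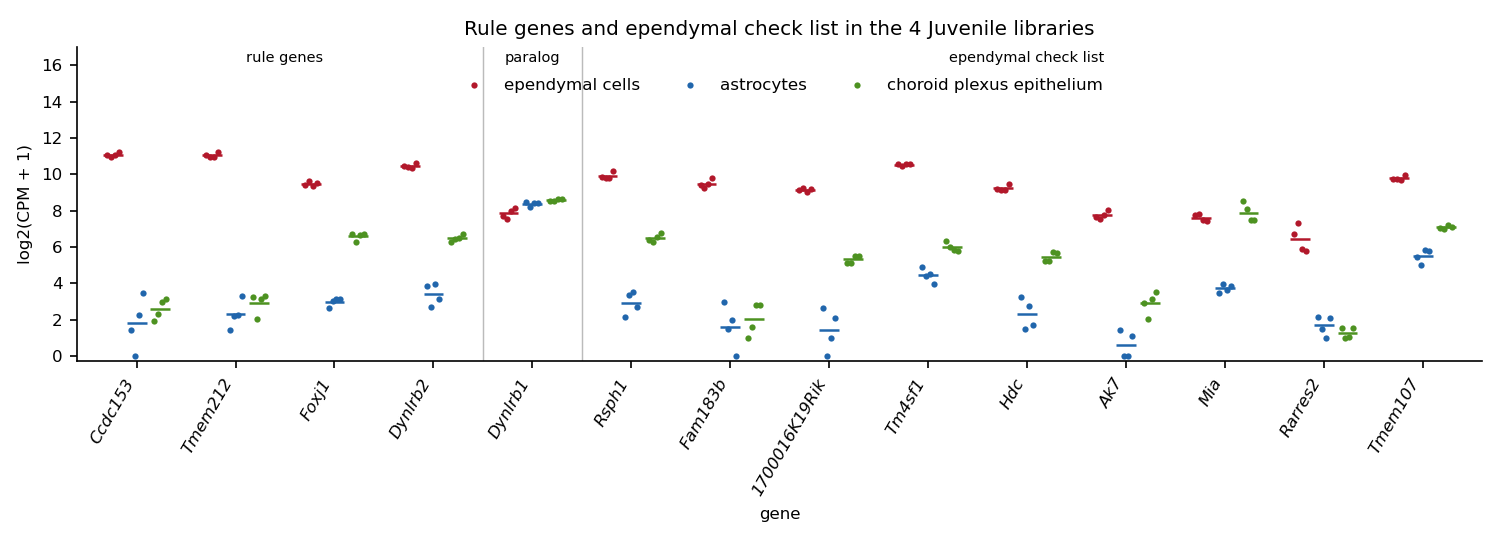
Levels (y, log2 of CPM + 1) of the rule genes, the paralog Dynlrb1 and the check list in ependymal cells (red), astrocytes (blue) and choroid plexus epithelium (green); points are the 4 Juvenile libraries and bars their means. Ependymal points are highest for every gene except Dynlrb1, where they are lowest, and Mia, where they overlap those of choroid plexus cells.

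Markers of other cell types were found in the ependymal cells. Summed over 10 genes each, neuronal markers had 23.8 to 33.9 CPM in ependymal cells and oligodendrocyte markers 57.8 to 116, with Sox10 at 0. The same lists had 49.5 to 89.0 and 399 to 578 CPM in astrocytes, and 40.8 to 57.7 and 117 to 159 in choroid plexus cells. Mural and fibroblast markers (9 genes) had 322 to 701 CPM in ependymal cells, 213 to 375 in astrocytes and 198 to 249 in choroid plexus cells. Microglial markers (4 genes) had 164 to 343 CPM in ependymal cells and endothelial markers (4 genes) 214 to 546. Astrocytes had 78.9 to 203 and 174 to 243 CPM of them, and choroid plexus cells 137 to 271 and 515 to 582. Cells with 4 or more UMIs of either of these last 2 lists were left out of the astrocytes but not of the ependymal or choroid plexus cells. An alternative left out of all populations the cells with 2 or more UMIs of either list, called cells of mixed type below, which kept 47, 35, 172 and 191 ependymal cells of libraries 1 to 4. Choroid plexus markers had 1766 to 3385 CPM in ependymal cells, 153 to 521 in astrocytes and 16160 to 17704 in choroid plexus cells. All 14 of them were higher in ependymal cells than in astrocytes (median log2 3.3, where 32.2% of all genes were higher) and all 14 lower than in choroid plexus cells (median -2.87, where 30.7% of all genes were lower). Under the stricter cut 5 of the 14 stayed higher than in astrocytes, with a median of 0.61. These were Calml4, Clic6, Folr1, Otx2 and Sostdc1. Against choroid plexus cells all 14 stayed lower under this cut, with a median of -6.0 in place of -2.87. Calml4, a calmodulin-like protein, had 429, 430, 487 and 549 CPM in ependymal cells and 811 ± 60.1 in choroid plexus cells. Ttr itself had 16645 to 32657 CPM in ependymal cells and 4864 to 12672 in astrocytes, and at least 1 Ttr UMI was found in every ependymal cell thinned to 1500 UMIs and in 4324 of 4325 microglia thinned in the same way. The part that RNA of choroid plexus cells has in the other values was not tested.

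Most axoneme genes were higher in the ependymal cells than in both neighbours. Across 7 lists of ciliary genes 174 of 191 genes could be tested. Of these, 167 were higher and 1 lower than in astrocytes (median log2 3.63), and 164 were higher and 4 lower than in choroid plexus cells (median 2.01). Of all genes tested 32.2% were higher and 29.2% lower than in astrocytes, and 33.2 and 30.7% for choroid plexus cells, and the same shares stand beside the counts of each ciliary list that follows. These cells were picked by genes of the same programme, and some of these genes may pass the filter only through the ependymal sums. How many do so was not counted. The counts therefore describe the cells and are no independent test of the label. Both comparisons use the same ependymal sums. The neighbours were also held to few rule UMIs, at most 1 in astrocytes and under 4 in choroid plexus cells. In the Juvenile libraries 282 cells with 20% Ttr or more were left out for having 4 or more rule UMIs. The part of these limits in the counts was not tested. The genes not higher in either were Dynlrb1, Dynlt1a, Pih1d1 and Tekt5. Median log2 differences from astrocytes were 4.33 to 5.78 for the dynein arm, spoke and doublet lists, 3.7 for assembly factors, and 2.06 and 1.51 for transport and transition zone genes, which primary cilia also use.

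Inner dynein arm and nexin link genes were all higher, 24 of 24 tested in both comparisons, with medians of 5.69 and 3.5. Dnah12, an inner arm heavy chain, had 293, 331, 328 and 376 CPM. Only 2 UMIs of it were counted in astrocytes, for a ratio of 524 (95% interval 145 to 4329), and it was 154-fold higher than in choroid plexus cells (log2 7.26 ± 0.17, edgeR adjusted p = 1.84e-35). Dnah6, another inner arm heavy chain, had 315 ± 14.7 CPM (SD, n = 4) but only 6.87-fold more than choroid plexus cells, which had 46.8 ± 4.13. Both heavy chains were even across the ependymal libraries and above all others. Dnali1, a light intermediate chain of the inner arm, was 99.1-fold and 26.3-fold higher. Of 17 outer arm genes 15 were higher than in astrocytes and 14 than in choroid plexus cells. Tctex1d4 (347, 333, 355 and 371 CPM) was 254-fold and 15.7-fold higher, while the calaxin gene Efcab1, which docks outer arms, was 31.5-fold and only 2.15-fold higher. Dynll1, a light chain shared with many other complexes, had 1516 ± 117 CPM and was 2.83-fold and 1.79-fold higher.

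Factors that assemble dyneins in the cytoplasm were higher in 17 of 18 cases in both comparisons (medians 3.7 and 2.46). Zmynd10 had 162, 175, 148 and 142 CPM and was 11.4-fold higher than in choroid plexus cells (log2 3.51 ± 0.15, edgeR adjusted p = 7.74e-25). Lrrc6 and Dnaaf1, which act with it, were 15.1-fold and 14.9-fold higher there. Ruvbl2, an ATPase with many other roles, had 187 ± 27.5 CPM and was 4.41-fold and 7.37-fold higher. Pih1d1, which assembles other complexes as well, had 49.6, 38.9, 48.1 and 34.8 CPM and was called in neither comparison (edgeR adjusted p = 0.303 and 0.328), its groups overlapping in both.

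Radial spoke and central pair genes were higher in 20 of 20 cases in both comparisons (medians 5.78 and 2.48). Spag17, a large central pair protein, had 101, 104, 96.1 and 97.7 CPM with no UMI in astrocytes, which puts it at least 101-fold higher against a floor of 3 UMIs over the group, and it was 117-fold higher than in choroid plexus cells. Spag6, a second central pair protein, had 259, 242, 244 and 287 CPM and was 96.5-fold higher than in astrocytes but only 3.1-fold higher than in choroid plexus cells, which had 84.4 ± 3.28. Nme5 (365 ± 17.6 CPM) was 20-fold and 2.17-fold higher. Over the whole list, log2 differences from choroid plexus cells ran from 0.76 to 6.87.

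Proteins inside the doublets and tektins were higher in 34 of 35 cases against astrocytes and in 32 of 35, with 2 lower, against choroid plexus cells (medians 5.37 and 2.86). Meig1 had 877, 904, 901 and 986 CPM and was 108-fold and 23.3-fold higher (log2 4.54 ± 0.11, edgeR adjusted p = 8.09e-31 for choroid plexus cells). Mlf1 had 647, 610, 574 and 738 CPM and was 54.5-fold and 4.75-fold higher. 1700007K13Rik (567 ± 54.1 CPM) was 62.4-fold and 7.27-fold higher. All 3 were above all libraries of both other populations.

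Genes of intraflagellar transport, which carries cargo along all cilia, were higher in 29 of 29 and 28 of 29 cases, with medians of 2.06 and 1.27. Ift20 had 417, 359, 394 and 475 CPM and was 4.65-fold and 2.22-fold higher. Ift27 (271 ± 31.2 CPM) was 3.07-fold and 3.95-fold higher. For the BBSome, which sorts ciliary membrane proteins, and the transition zone, the gate at the base, 28 of 31 and 29 of 31 were higher (medians 1.51 and 1.04). B9d1 (299 ± 45.2 CPM) was 4.61-fold and 2.81-fold higher and Tctn2 (170 ± 13.7 CPM) 9.79-fold and 2.22-fold. Arl3, a small GTPase, had 352, 314, 357 and 424 CPM and was 1.75-fold and 1.3-fold higher. Bbip1 had 117, 145, 144 and 172 CPM in ependymal cells and 152 ± 12.3 in astrocytes, without a call there (edgeR adjusted p = 0.636).

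**Figure D3:**
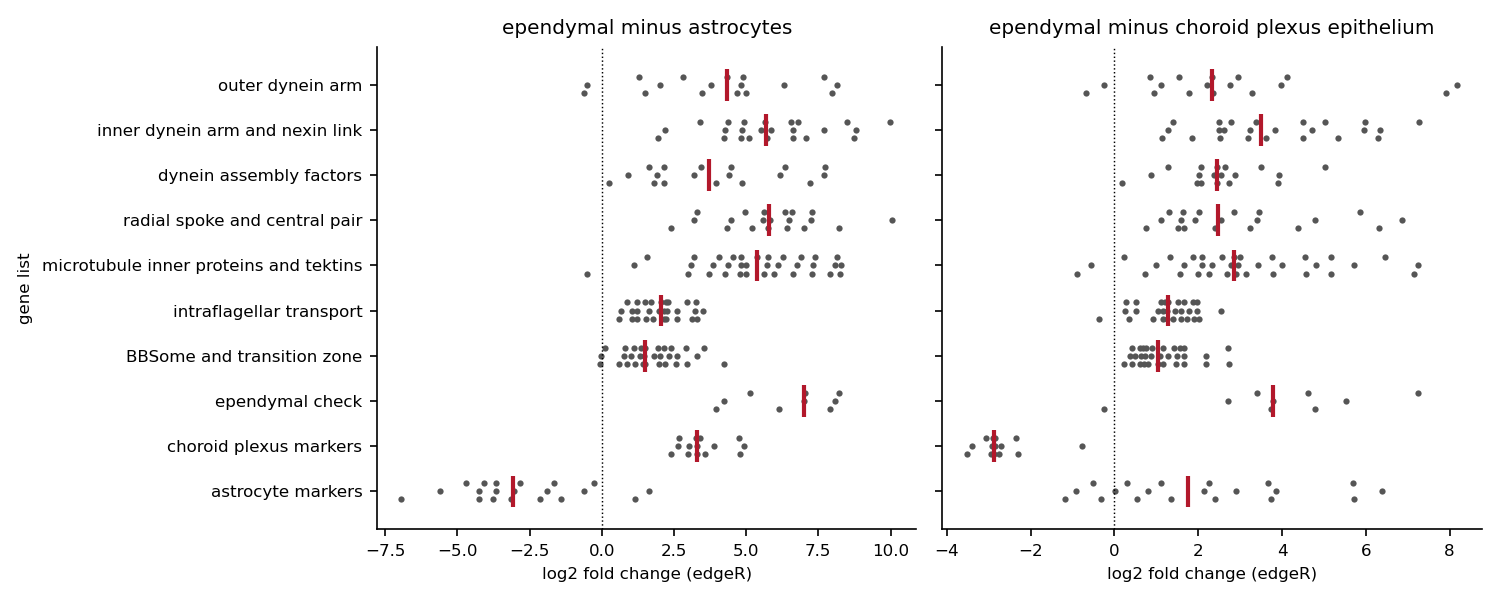
Log2 fold changes (x, edgeR) of each tested gene (points) by list (y), ependymal cells minus astrocytes at left and minus choroid plexus epithelium at right, with a red bar at each list's median. The 7 ciliary lists lie to the right of 0 in both panels with few exceptions, the choroid plexus markers change side between the panels, and the astrocyte markers have medians of -3.09 and 1.75.

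Promoter sequence is a property of the listed genes and uses no value of these cells, so the shares below describe the lists and not the members. RefSeq promoter windows of GRCm38.p6, from 250 bases before to 50 after each start, were found for 160 of the 191 ciliary genes. The X-box core GTTGCCA, read on both strands and bound in its full form by Rfx factors, was in 40 of the 160 (25%), against 4.38% of all 32851 windows and 5.02% of genes. The share was 37.5% in the doublet protein and tektin list (12 of 32), 30.4% in the inner arm list (7 of 23), 26.9% in intraflagellar transport (7 of 26), 26.7% in assembly factors (4 of 15), 24.1% in the BBSome and transition zone list (7 of 29) and 15% in the spoke and central pair list (3 of 20), but 0 of 15 outer arm genes held it. Of the choroid plexus markers 1 of 10 held it, Otx2. None of 15 astrocyte markers did, nor any of the 3 rule genes and 6 check genes with a window. A spaced form of the X-box, which overlaps the core, was in 9 of the 160 (5.62%) and 0.816% of all windows, and the forkhead core TGTTTAC was in 5 (3.12%) and 3.65%. The full form of the X-box was searched as well, and was in 0 of the 160 and in 6 of all 32851 windows (0.0183%). Counted by gene, the spaced form was in 0.94% and the forkhead core in 4.05% of all genes. A match describes letters in a window and is not a site. Stretches were taken only where at least 20 bases lay between the core and the start, and between the core and the window's upstream end. Below are 8 such stretches of 47 bases, from the ciliary genes with the highest ependymal levels among those that met these limits. Each runs 5′ to 3′ on the strand of its gene, with the core or its reverse complement in capitals.
Mlf1, doublet protein, chr3:67373972-67374018, plus strand: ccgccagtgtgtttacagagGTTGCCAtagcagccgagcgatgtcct
Lrrc23, doublet and spoke protein, chr6:124779740-124779786, minus strand: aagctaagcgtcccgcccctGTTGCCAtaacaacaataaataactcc
Kif9, central pair kinesin, chr9:110476947-110476993, plus strand: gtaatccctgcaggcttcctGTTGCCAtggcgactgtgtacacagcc
Iqca, nexin link protein, chr1:90153510-90153556, minus strand: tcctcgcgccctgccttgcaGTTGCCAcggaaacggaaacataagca
Morn2, doublet protein list, chr17:80289987-80290033, plus strand: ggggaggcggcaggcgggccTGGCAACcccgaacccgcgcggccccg
Mns1, doublet protein, chr9:72438436-72438482, plus strand: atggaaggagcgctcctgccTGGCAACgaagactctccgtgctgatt
Lztfl1, BBSome partner, chr9:123717755-123717801, minus strand: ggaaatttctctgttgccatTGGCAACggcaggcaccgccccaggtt
Tctn3, transition zone protein, chr19:40612345-40612391, minus strand: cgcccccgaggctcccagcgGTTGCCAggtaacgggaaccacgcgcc
The core stood 20 to 198 bases before the start in these 8 windows. The Mlf1 stretch also holds the forkhead core, the windows of Lrrc23 and Kif9 hold the spaced form, and the Lztfl1 stretch holds another copy of the core in lower case just before the marked one.

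Of 12 regulators of multiciliation that could be tested, 8 were higher and 1 lower than in astrocytes (32.2 and 29.2% of all genes), and 7 higher and 3 lower than in choroid plexus cells (33.2 and 30.7%), while 6 including Mcidas and Foxn4 were too low to test. Myb, which drives the early programme of multiciliated cells, had 67.7, 95.2, 78.7 and 82.8 CPM and was 30.1-fold higher than in astrocytes and 128-fold higher than in choroid plexus cells (log2 7 ± 0.32, edgeR adjusted p = 1.36e-23). Ccno, a cyclin needed to amplify centrioles, had 31.6, 32.4, 11.8 and 29.8 CPM and was 16.7-fold higher than in choroid plexus cells. Trp73 had 56.4, 49.8, 57.8 and 47.2 CPM, and 2.13-fold less in choroid plexus cells (25.8 ± 5.12). Gmnc, the geminin relative at the top of the cascade, went the other way: 13.5, 15.1, 13.2 and 9.94 CPM in ependymal cells against 74.1, 62.7, 47 and 51.7 in choroid plexus cells, 4.35-fold lower (log2 -2.12 ± 0.2, edgeR adjusted p = 1.51e-12), with no UMI in astrocytes. Only Gmnc among these 4 genes was lower in ependymal than in choroid plexus cells.

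The Rfx factors differed among themselves. Rfx2 (49.6, 82.2, 45.3 and 49.7 CPM) was 11.5-fold and 3.25-fold higher. Rfx3 had 158, 177, 138 and 142 CPM, was 3.73-fold higher than in astrocytes and 1.39-fold lower than in choroid plexus cells (edgeR adjusted p = 2.52e-04), a call lost when cells of mixed type were left out (log2 -0.32, against -0.47, adjusted p = 0.0866) and after thinning (log2 -0.32, adjusted p = 0.0616). Rfx4, a factor of neural progenitors and glia, had 76.7, 58.4, 75.2 and 75.3 CPM, overlapped astrocytes (81.7 ± 16.6) and was 63.3-fold higher than in choroid plexus cells. Fank1 (88.3 ± 3.36 CPM), a nuclear protein of ciliated cells, was 51.3-fold and 11.7-fold higher. E2f5 was 2.16-fold lower than in astrocytes. For centriole genes, 12 of 14 were higher than in astrocytes, 11 of 14 than in choroid plexus cells and none lower, beside 32.2 and 33.2% of all genes higher and 29.2 and 30.7% lower. Cep164, which anchors basal bodies, had 97, 77.9, 79.4 and 89.4 CPM and was 4.48-fold and 2.73-fold higher. Ccdc67 (Deup1), the scaffold of deuterosomes on which new centrioles form, was named after its values were seen. It had 45.1, 56.2, 30 and 35.6 CPM with no UMI in astrocytes (at least 38.2-fold) and was 21.9-fold higher than in choroid plexus cells.

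Tubulins moved in both directions. Of 10 tested genes 4 were higher and 6 lower than in astrocytes, and 4 higher and 4 lower than in choroid plexus cells. Of all genes 32.2 and 33.2% were higher in these comparisons, and 29.2 and 30.7% lower. Tubb4b, the beta-tubulin of axonemes, had 1301, 1159, 908 and 984 CPM and was 10.7-fold and 3.69-fold higher (log2 3.42 ± 0.1, edgeR adjusted p = 6.73e-31 for astrocytes). Tuba1a had 3356, 3230, 2835 and 3459 CPM and was 2.67-fold and 7.72-fold higher, although UMIs of the near-identical Tuba1 genes may be split uncertainly. Tubb2b and Tubb5 were lower than in astrocytes, 12.7-fold and 2.73-fold. Tppp3, a tubulin polymerization protein, had 1238, 1218, 1288 and 1536 CPM and was 53.4-fold and 69.2-fold higher. Ttll3, which adds glycine to axonemal tubulin, had 207 ± 33.1 CPM and was 11.9-fold and 10.1-fold higher.

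**Figure D4:**
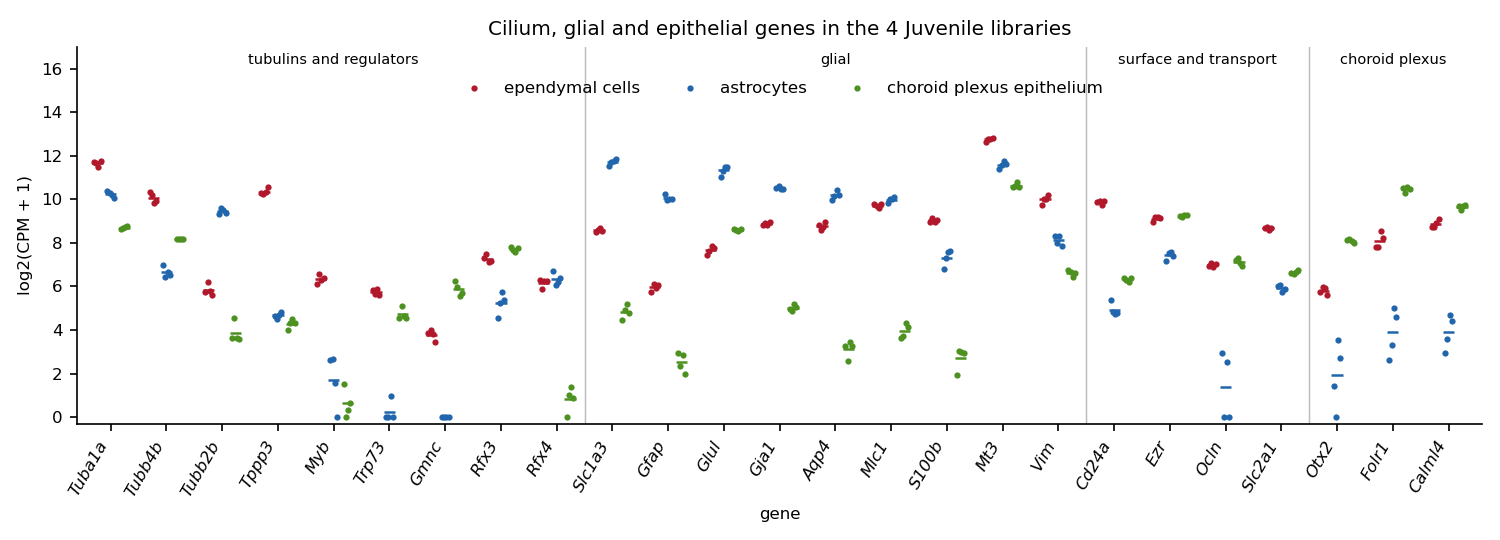
Levels (y, log2 of CPM + 1) of tubulin, regulator, glial, surface and choroid plexus genes in ependymal cells (red), astrocytes (blue) and choroid plexus epithelium (green); points are the 4 Juvenile libraries and bars their means. Ependymal points lie with astrocytes for Rfx4 and close to them for Mlc1, and overlap choroid plexus points for Ezr and Ocln.

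Glial genes were present at graded levels. Of 20 astrocyte markers 18 were lower than in astrocytes, where 29.2% of all genes were lower, and 2 higher. Against choroid plexus cells 15 of the 20 were higher and 2 lower, beside 33.2 and 30.7% of all genes. Gfap, the intermediate filament of astrocytes, had 51.9, 69.2, 60.6 and 66.2 CPM and was 17.1-fold lower than in astrocytes (log2 -4.09 ± 0.11, edgeR adjusted p = 1.03e-32). The glutamate transporter Slc1a3 (365, 389, 408 and 377 CPM) was 8.8-fold lower, glutamine synthetase Glul (204 ± 23.2 CPM) 12.6-fold lower, the bicarbonate transporter Slc4a4 12.8-fold lower and the Notch target Hes5 123-fold lower. All 5 were below every astrocyte library, as were 24% of all genes tested. The gap was smaller for membrane genes of the glial endfoot. The gap junction gene Gja1 (472 ± 26.4 CPM) was 3.13-fold lower, and the water channel Aqp4 (441 ± 49.6 CPM) was 2.68-fold lower than in astrocytes and 51.5-fold higher than in choroid plexus cells. Mlc1 had 882, 833, 772 and 881 CPM against 906 to 1118 in astrocytes. Its call as 1.22-fold lower (edgeR adjusted p = 0.00155) was lost with Ttr under 5% (log2 -0.1, adjusted p = 0.281). Against choroid plexus cells Mlc1 was 52.5-fold higher.

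The 2 astrocyte markers that were higher were S100b and Mt3. S100b, a calcium-binding protein, had 494, 573, 502 and 525 CPM and was 3.13-fold higher than in astrocytes and 83.1-fold higher than in choroid plexus cells (log2 6.38 ± 0.15, edgeR adjusted p = 1.28e-34). The metallothionein Mt3 had 6455, 6981, 7026 and 7211 CPM and was 2.23-fold and 4.37-fold higher. Its relatives Mt1 (6311, 6557, 6121 and 6731 CPM) and Mt2 (1977 ± 157 CPM) were 2.82-fold and 2.35-fold higher than in astrocytes, and 16.1-fold and 51.6-fold higher than in choroid plexus cells. Of the 8 S100 genes tested 5 were higher than in astrocytes and 3, S100a1, S100a13 and S100a16, lower, beside 32.2 and 29.2% of all genes. Against choroid plexus cells 6 were higher and 0 lower, beside 33.2 and 30.7%. S100a6 (796 ± 122 CPM) was 2.74-fold and 21.2-fold higher and S100a11 (561 ± 30.1 CPM) 6.81-fold and 6.51-fold. S100a16 was 6.18-fold lower than in astrocytes. Of 24 radial glia and stem cell genes 23 were tested, with 8 higher and 13 lower than in astrocytes, and 16 higher and 3 lower than in choroid plexus cells, beside 32.2 and 29.2%, and 33.2 and 30.7%, of all genes. Vim, an intermediate filament of radial glia, had 862, 1051, 1033 and 1190 CPM and was 3.71-fold and 10.8-fold higher. Cd24a, a surface protein long used to sort ependymal cells, had 947, 982, 869 and 965 CPM and was 31.7-fold and 11.8-fold higher. Sox9 (641, 902, 640 and 657 CPM) was 1.78-fold and 2.72-fold higher, and Id4 was 7.89-fold higher than in choroid plexus cells.

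Junction and transport genes were mixed, while most polarity genes were higher. Of 20 genes of planar polarity and basal body position, 14 were higher in each comparison, and 2 and 1 lower. Of all genes 32.2 and 33.2% were higher in these comparisons, and 29.2 and 30.7% lower. Celsr1, a cadherin of planar polarity, had 54.1, 82.2, 73.2 and 80.3 CPM and was 2.77-fold and 3.23-fold higher. Ptk7 (69.1 ± 7.74 CPM) was 2.71-fold and 2.64-fold higher, Tmem67 (80.2 ± 7.97 CPM) 7.47-fold and 4.56-fold, and Cby1, which docks basal bodies, 2.25-fold and 2.26-fold. Among 32 junction and adhesion genes 14 were higher and 13 lower than in astrocytes and 13 and 13 than in choroid plexus cells, beside 32.2 and 29.2%, and 33.2 and 30.7%, of all genes. Under the stricter cut 10 were higher and 13 lower than in astrocytes (median log2 -0.44). Ezr, which links membrane and actin in microvilli, had 498, 586, 585 and 559 CPM, was 3.23-fold higher than in astrocytes and overlapped choroid plexus cells (604 ± 19.4). Ocln, a tight junction protein named after its values were seen, had 120, 134, 118 and 129 CPM, was 41.6-fold higher than in astrocytes and overlapped choroid plexus cells (141 ± 14.8). Ctnna1 was 2-fold higher than in astrocytes.

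Of 33 transport genes 15 were higher and 16 lower than in astrocytes, and 16 higher and 15 lower than in choroid plexus cells, beside 32.2 and 29.2%, and 33.2 and 30.7%, of all genes. Under the stricter cut 8 were higher than in astrocytes and 16 lower (median log2 -0.82, from -0.27), and Aqp1, Kcne2, Kcnj13 and Slc4a5, which the choroid plexus marker list also holds, were no longer called higher. Slc2a1, the glucose transporter GLUT1, had 406, 430, 391 and 411 CPM and was 6.93-fold and 4.02-fold higher (log2 2.01 ± 0.09, edgeR adjusted p = 3.67e-24 for choroid plexus cells). Ak7, Ak8, Ak9 and Eno4, adenylate kinases and an enolase of cilia, were 27.9-fold, 5.83-fold, 10.5-fold and 4.36-fold higher than in choroid plexus cells, whereas Ak1, Aldoa, Eno1, Gapdh, Ldha, Ldhb and Pkm were lower in that comparison and Pgk1 was not called. Brain creatine kinase Ckb (1862 ± 117 CPM) was 1.9-fold lower than in astrocytes and 2.78-fold higher than in choroid plexus cells. The ferritin gene Fth1 (3609 ± 221 CPM) was 2.26-fold higher than in astrocytes.

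Counts of secreted proteins, receptors and regional transcription factors stand beside the shares of all genes. These were 32.2% higher and 29.2% lower than in astrocytes, and 33.2 and 30.7% for choroid plexus cells. Of 36 secreted ligands and binding proteins 13 were higher and 17 lower than in astrocytes, and 12 and 17 for choroid plexus cells. Sparc, a matrix protein, had 2143, 2068, 2379 and 2347 CPM and was 3.76-fold and 1.49-fold higher. Cst3, a protease inhibitor (1417 ± 134 CPM), Apoe, a lipid carrier (6020 ± 482 CPM), and clusterin Clu (2201 ± 203 CPM) were 11.9-fold, 4.03-fold and 1.55-fold lower than in astrocytes. Of 30 receptors 12 were higher and 9 lower than in astrocytes, and 10 and 13 for choroid plexus cells. Ddr1, a collagen receptor, had 417, 446, 423 and 469 CPM and was 4.2-fold and 2.86-fold higher. Of 20 regional transcription factors tested, 7 were higher and 9 lower than in astrocytes, and 9 higher and 4 lower than in choroid plexus cells. Lhx2, a cortical factor, had 58.6, 51.9, 46.7 and 54.6 CPM and was 3.2-fold lower than in astrocytes and 35.1-fold higher than in choroid plexus cells. Otx2, a factor of choroid plexus, had 51.9, 62.7, 59.2 and 48 CPM over all members and was 4.92-fold lower than in choroid plexus cells.

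Few members carried cell cycle transcripts. All 12 cell cycle genes tested were lower than in astrocytes (median log2 -1.4), and 4 were higher and 1 lower than in choroid plexus cells, where 29.2% of all genes were lower than in astrocytes and 33.2% higher than in choroid plexus cells. Top2a had 11.3, 21.6, 7.66 and 6.62 CPM and was 4.03-fold lower than in astrocytes, and the replication gene Mcm3 7.69-fold lower. To compare shares of cells at 1 depth, cells were thinned to 1500 UMIs, which left out 24 ependymal cells, 71 astrocytes and 3 choroid plexus cells. Of the 692 ependymal cells left, 17 (2.46%, exact binomial 95% interval 1.44 to 3.9%) had 2 or more cell cycle UMIs, against 5.19% of astrocytes, 1.4% of choroid plexus cells and 16.9% of 4325 microglia. Before thinning, at unequal depth, the order of the first 2 was turned, with 12.3 and 11.1%. Mki67 had a UMI in 0 of 692 thinned cells, which allows up to 0.434% of cells with a UMI at this depth, and in 9 of 716 (1.26%) before thinning. Such intervals and limits cover counting error only.

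Shares of members with a UMI were taken at the same depth. Tuba1a was detected in 94.2% (98.9% before thinning), Tm4sf1 in 85.4%, Tppp3 in 83.8%, Rsph1 in 79.6%, Vim in 75.6%, Cd24a in 74.1%, Aqp4 in 52.0% (80.2% before thinning) and Tekt1 in 47.0% (72.5% before). In thinned endothelial cells Tuba1a was found in 65.2%, Tm4sf1 in 31.3%, Tppp3 in 2.36% and Rsph1 in 0.936%. Vim was found in 66.5% of them, Cd24a in 7.46%, Aqp4 in 1.59% and Tekt1 in 0.468%. Microglia, which should lack the ciliary genes, had Rsph1 in 0.601% and Tekt1 in 0.601%, and choroid plexus cells had them in 11.4 and 8.12%. Microglia were held to at most 1 rule UMI and choroid plexus cells to under 4, so these shares do not stand under like limits. The median depth before thinning was 3990 UMIs in ependymal and 8433 in choroid plexus cells. Genes of early ciliogenesis were seen in fewer members: Myb in 14.2% (30.9% before thinning), Trp73 in 8.96%, Ccdc67 in 6.21% and Ccno in 3.76%. Myb was found in 0.231% of microglia and in 0 of 1577 choroid plexus cells. Trp73, Ccdc67 and Ccno were found in 0.116, 0.0694 and 0.0694% of microglia, and in 2.09, 0.127 and 0.127% of choroid plexus cells. Across libraries the Ccdc67 share ran from 3.79 to 12.5% and that of Myb from 10.0 to 23.8%. Dynlrb1 was found in 31.4% of ependymal cells, 39.2% of astrocytes and 33.7% of choroid plexus cells. A low share at this depth does not separate cells without the transcript from cells in which it was missed.

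The largest differences named further genes. They were taken from genes with at least 50 CPM that passed the test and did not overlap between libraries. Got1l1, a relative of an aspartate aminotransferase, had a mean of 228 CPM with no UMI in astrocytes, at least 234-fold higher. Rbp2, a retinol-binding protein, and Zp3, named for the egg coat, had 101 ± 14.5 and 59.5 ± 6.08 CPM and were at least 99.4-fold and 61.8-fold higher than in astrocytes. Zp3 was 96-fold higher than in choroid plexus cells, too. Slc26a3, an anion exchanger, had 42.9, 60.6, 49.5 and 61.3 CPM with no UMI in choroid plexus cells, at least 169-fold higher. The sodium channel Scn7a, which the lists hold as a tanycyte marker, had 74.4, 82.2, 59.9 and 67.9 CPM with 1 UMI in choroid plexus cells, for a ratio of 632 (95% interval 112 to 25049). Of 4 tanycyte markers tested, Scn7a and Slc17a8 were higher and Crym and Lhx2 lower than in astrocytes, beside 32.2 and 29.2% of all genes. Against choroid plexus cells Slc17a8 was lower and the others higher, beside 30.7 and 33.2%. Summed, the list had 131 to 175 CPM in ependymal cells and 211 to 322 in astrocytes. The imprinted gene Nnat had 2404, 2858, 2275 and 2528 CPM and was 17.2-fold higher than in astrocytes and 281-fold higher than in choroid plexus cells. Dmkn (353 ± 44.9 CPM) and the ciliary tip gene Sntn (248 ± 34.9 CPM) were 289-fold and 274-fold higher than in choroid plexus cells.

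Among the genes lower than in astrocytes were Dbx2 with 1 UMI in ependymal cells and 184 ± 4.41 CPM in astrocytes, the secreted protein Myoc (273-fold lower), the glutamate receptor Grm3 (136-fold lower) and the thyroid hormone enzyme Dio2 (80.5-fold lower). Lower than in choroid plexus cells were Ptgds (13.5-fold), Ins2 (12.7-fold), Wfdc2 (12.2-fold), Pcp4 (11.1-fold) and Enpp2 (10.7-fold). These folds are over all members. Under the stricter cut the choroid plexus marker list lay further below choroid plexus cells, with a median log2 difference of -6.0. Enpp2, the lysophospholipase autotaxin, varied among the ependymal sums, with 526, 781, 1411 and 893 CPM, as Ttr did, and is a gene of the choroid plexus marker list. Acta2, smooth muscle actin, is in the mural marker list, of which 2 of 7 tested genes were higher and 1, Pdgfrb, lower than in astrocytes, beside 32.2 and 29.2% of all genes. It had 196, 186, 254 and 217 CPM in ependymal cells and 113, 27.2, 50.9 and 5.56 in astrocytes, 5.05-fold higher (edgeR adjusted p = 0.00875), a call lost at a like size without library 3 (log2 2.36, adjusted p = 0.0718) and with libraries 1 and 2, and 3 and 4, summed (log2 2.26, adjusted p = 0.0924). Against choroid plexus cells it was 14.3-fold higher. After thinning, 24.7% of ependymal cells held an Acta2 UMI, against 2.6% of astrocytes, 1.4% of choroid plexus cells and 2.43% of microglia.

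Members outside the Juvenile libraries were few and of mixed kind. The 3 Adult libraries had 27, 11 and 9 members with a median Ttr share of 16.6% and 34 of 47 at 10% or more, and 5 passed the stricter cut. Of the 14 Aged members 7 had 10% Ttr or more and 5 passed it. A fit over libraries with at least 10 members called 1800 genes higher and 1777 lower in Adult than in Juvenile members (23.4 and 23.1% of 7686 tested), with 745 and 744 without Adult library 1, a fit that leaves 1 Adult library and assumes that it varies like the other groups. The values of Ttr move with this comparison, and their part in it was not tested. In EAE 52 and 45 members were found, of which 60 had under 5% Ttr and 49 (27 and 22) passed the stricter cut. All members gave 1650 genes higher and 1642 lower in EAE than in Juvenile (21.5 and 21.4%), Ttr under 5% gave 461 (6.8%) and 377 (5.56%) of 6781, and the stricter cut gave 294 (4.5%) and 215 (3.29%) of 6532. Since EAE mice were older than Juvenile mice and untreated Adult members were too few, age and disease cannot be told apart.

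Genes of interferon response and antigen presentation were higher in the EAE members. Of 20 such genes 18 were higher and none lower under the stricter cut (median log2 4.27), where 4.5% of all genes were higher and 3.29% lower and their median was -0.01. At Ttr under 5% 18 were higher too (median 3.94), where 6.8% of all genes were. Of the 20, 9 were too low to be tested in the Juvenile comparisons and could pass the filter here through the EAE libraries, and 8 of those 9 are among the 18, so the count is a description. The 6 tested choroid plexus markers gave no call under the stricter cut (median 0.27), while 9 of 11 were higher at Ttr under 5%. H2-K1, an MHC class I heavy chain, had 54.1, 36.2, 37.7 and 52.7 CPM in Juvenile libraries and 4689 and 3269 in EAE, 87.9-fold higher (log2 6.46 ± 0.16, edgeR adjusted p = 5.81e-28). Choroid plexus cells had 29.2 to 35.0 CPM in Juvenile and 413 and 321 in EAE libraries, and astrocytes 54.1 to 69.4 and then 1667 and 1184, values given for comparison without a test. H2-D1 was 34.8-fold higher and its light chain B2m 29.3-fold. The proteasome subunit Psmb9 (37.1-fold), the transcription factor Irf1 (7.63-fold) and the class II genes Cd74 (171-fold) and H2-Aa (144-fold) were higher as well. Cd74 had 6.36, 3.02, 4.18 and 6.72 CPM in Juvenile and 1027 and 846 in EAE.

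Class II genes are also known from immune cells. Cd74 had 409 and 350 CPM in EAE choroid plexus cells and 3111 and 2127 in EAE astrocytes. Lyz2, a lysozyme of myeloid cells chosen after its values were seen, had 12.7, 9.06, 15.7 and 15.7 CPM in Juvenile and 234 and 171 in EAE ependymal cells, with 191 and 168 in EAE choroid plexus cells and 1409 and 1829 in EAE astrocytes. Of 4 microglial markers, with a median log2 difference of -1.66, C1qa was higher and P2ry12 lower in EAE ependymal cells under the stricter cut. The part that RNA of immune cells has in the values of Cd74, H2-Aa and Lyz2 was not tested. The complement gene C4b, also chosen after its values were seen, had 793 and 652 CPM in EAE ependymal cells. It had 12.2 and 9.57 in EAE choroid plexus cells and 399 and 327 in EAE astrocytes. In EAE ependymal cells C4b was 115-fold higher than in Juvenile ones (log2 6.85 ± 0.28), a description and no test, since these values chose the gene. Gfap had 63.6, 96.7, 90.0 and 79.6 CPM in Juvenile and 732 and 1189 in EAE, 11.4-fold higher. EAE astrocytes held 458 and 260, a value given without a test. In the Juvenile libraries Gfap was lower in ependymal cells than in astrocytes, as given above. The EAE astrocyte values rest on at most 34 cells per library.

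**Figure D5:**
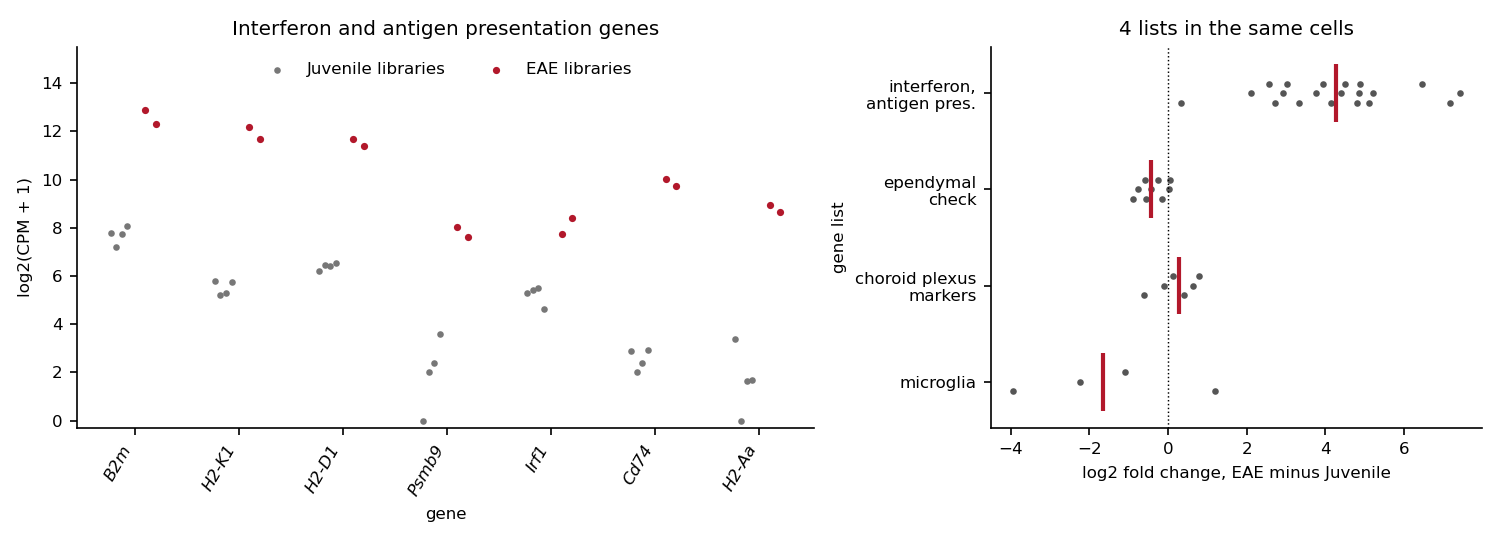
At left, levels (y, log2 of CPM + 1) of the named interferon and antigen presentation genes in ependymal cells with at least 10 rule UMIs and under 5% Ttr, for the 4 Juvenile libraries (grey) and the 2 EAE libraries (red). At right, log2 fold changes (x) of the genes of 4 lists (points) in the same cells with medians as red bars: the interferon list has a median of 4.27 and the ependymal check list one of -0.43.

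Some ciliary genes were lower in EAE. Over all EAE members 128 of 168 were lower and 4 higher (median log2 -1.23), where 21.4% of all genes were lower and 21.5% higher. The choroid plexus markers moved with this, 13 of 13 tested being higher in EAE (median log2 2.49), and their part in it was not tested. Of 167 tested under the stricter cut, which itself uses the level of ciliary rule genes, 25 were lower and 1 higher (median log2 -0.33, where 3.29% of all genes were lower and 4.5% higher), and at Ttr under 5% 44 of 168 were lower and none higher (median -0.50, where 5.56% of all genes were lower). Tuba1a had 4594, 4440, 4065 and 4509 CPM in Juvenile and 2014 and 1726 in EAE under the stricter cut, 2.35-fold lower (log2 -1.23 ± 0.12, edgeR adjusted p = 5.42e-11). Of the 9 check genes 8 were lower over all members, 6 at Ttr under 5% and 2 under the stricter cut, Tm4sf1 (1.71-fold lower) and Tmem107. Rsph1, lower at Ttr under 5% (log2 -0.44 ± 0.14, edgeR adjusted p = 0.0245), had under the stricter cut 1276, 1211, 1275 and 1535 CPM in Juvenile and 1078 and 1292 in EAE (edgeR adjusted p = 0.571). Ccdc153, which chose the cells, had 2800 to 3220 CPM in the Juvenile and 2492 and 2961 in the EAE libraries.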

How the data were processed

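Single cells of mouse brain cortex were captured by droplet 3′ RNA-seq in 11 libraries. The deposited UMI counts per gene and cell were made by the authors, whose submitted notes name STAR 2.5.3a, featureCounts 1.6.1 and UMI-tools 0.5.3 on mm10. The paper's methods give other versions of some tools. Of 54646 barcodes 50625 passed the limits on detected genes and on mitochondrial reads given above. Juvenile libraries held 16072895 to 23425535 UMIs, and the ependymal sums tested 375431 to 1258556. Astrocytes had at least 4 UMIs of 4 astrocyte genes, at most 1 rule UMI and under 4 UMIs of the microglial and of the endothelial list. Choroid plexus cells had 20% Ttr or more and under 4 rule UMIs. The 282 Juvenile cells with 20% Ttr or more and at least 4 rule UMIs were in none of the populations compared. Counts were summed per library and population and tested with edgeR 4.0.16 (quasi-likelihood, robust, TMM, filterByExpr, library as a block), leaving out genes that chose the cells, at a Benjamini-Hochberg adjusted p under 0.05. Conditions were compared over libraries with at least 10 members. DESeq2 1.42.0, other size factors, filters, rule limits, thinning to 1500 UMIs and leaving out each library were alternatives, and the stricter cut with at least 10 rule UMIs and under 5% Ttr, Ttr under 5% for the conditions and the block there were added after seeing the data. Doublets were marked with scanpy 1.11.5 and kept. The fitting was tried on simulated counts with a fixed spread and few changed genes, a setting that differs from these data. At a log2 change of 1 it recovered 79% of changed genes against astrocytes and 92% against choroid plexus cells. False calls were 4.79 and 4.48% of the calls. Genes named were the rule genes with Dynlrb1, up to 5 genes of each list by ependymal level, any gene of a list of up to 20, and up to 10 genes per comparison and direction with the largest differences among called genes of at least 50 CPM without overlap. Ccdc67, Ocln, Tekt1, Lyz2 and C4b were chosen after their values were seen. The members and lists were chosen with earlier results of these data known. Some genes are not reported here.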

Additional observations from a re-analysis of the deposited data

Results flagged for a closer look

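Among 103 named genes, 6 had 1 Juvenile library far from the other 3 in ependymal cells, with a gap over the whole range above Dixon's critical value at the 95% level. Chance flags about 1 in 20 groups. Library 2 was highest for Rfx2 (49.6, 82.2, 45.3 and 49.7 CPM, ratio 0.881), S100a4 (81.2, 106, 79.4 and 80.3 CPM, ratio 0.933) and Sox9 (641, 902, 640 and 657 CPM, ratio 0.935), and lowest for Rfx4 (76.7, 58.4, 75.2 and 75.3 CPM, ratio 0.921). Library 4 was highest for Tmem107 (862, 837, 836 and 998 CPM, ratio 0.843). Library 3 was highest for Wfdc2 (22.6, 17.3, 59.2 and 19.9 CPM, ratio 0.875), a gene lower than in choroid plexus cells, and had the highest Ttr level as well, 32657 CPM.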

How the results depend on the processing

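Counts of genes higher and lower than in astrocytes and choroid plexus cells stayed within 1.5 times of those reported under other size factors, DESeq2 and no filter on low counts. Leaving out each library gave 2866 to 3302 higher and 2590 to 2956 lower than in astrocytes, and 3039 to 3491 and 2690 to 3132 than in choroid plexus cells. Thinning to 1500 UMIs, with fewer genes tested, gave 1710 and 1562 against astrocytes and 1855 and 1448 against choroid plexus cells, and leaving out cells of mixed type, with 2 or more microglial or endothelial UMIs, which kept 47, 35, 172 and 191 ependymal and 21, 15, 145 and 222 choroid plexus cells, gave 1826 lower than in choroid plexus cells. Mia turned to a log2 difference of 0.15 without cells of mixed type and 0.12 after thinning, and the cause was not tested. Without the replicate block the counts were 3270 and 2957 against astrocytes and 3386 and 3049 against choroid plexus cells. Replicate numbers did not pair Juvenile with EAE libraries, with correlations of deviations from -0.05 to 0.05, and Adult libraries were not examined for this. With a replicate block EAE gave 1348 and 1338 genes and Adult 1508 and 1494. EAE against Juvenile gave 461 higher and 377 lower with Ttr under 5%, 294 and 215 under the stricter cut and 324 and 233 with the replicate block at Ttr under 5%. Leaving out a library, over both Ttr limits, gave 228 to 1850 higher and 183 to 1799 lower in EAE. Without EAE library 2 the counts were 1045 and 978, and at Ttr under 5% 228 and 183, with 284 and 223 without EAE library 1. Without Juvenile libraries 1 to 4 at Ttr under 5% they were 446, 424, 431 and 402 higher and 362, 348, 358 and 324 lower. Adult counts ran from 745 to 1898 higher and 744 to 2000 lower, the lowest without Adult library 1. Fits without 1 EAE or Adult library leave 1 library in that group, assumed to vary like the others. The small number of members, 47 Adult and 14 Aged, limits what those groups can show.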
